A study of Caenorhabditis elegans with 12 samples.

Results

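The genes homt-1, phf-14, rnh-1.3, ndx-2, cls-1 and citk-1 were followed across Caenorhabditis elegans germ lines that lacked mes-2 function, mes-4 function or both. They were picked from earlier results of these same arrays because their ratios were far from 0 in mes-2 mutants and nearer 0 in the double mutant. The mes-2 values, the double-mutant values and the gap between them therefore chose the genes and are given here as descriptions, whereas the mes-4 arrays did not enter the choice. Where mes-2 and double-mutant arrays do not overlap, that follows in part from the choice, and its share over all genes was not counted. All 6 genes were found on the array, with 1 probe each, out of 16378 genes that had a probe, and all 6 were among the 12887 genes measured often enough to be tested. Relative to the name "mes-2 changes lost in the double mutant", the arrays held a mixture. The double-mutant arrays of phf-14 (-0.47 to 0.29), homt-1 (-1.25 to 0.31) and rnh-1.3 (-0.58 to 0.69) lay on both sides of 0. Those of cls-1 ran from -0.02 to 1.83 on the 3 arrays with a value, and those of ndx-2 and citk-1 stayed above 0.

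MES-2 is the C. elegans relative of Enhancer of zeste and methylates a lysine in the tail of histone H3, a mark of repressed chromatin. MES-4 methylates another lysine of the same tail, a mark found on transcribed genes and, in this animal, passed on through the germ line. Both genes were found in screens for maternal-effect sterility, in which daughters of mutant mothers lose their germ cells.

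Each of the 12 arrays held RNA from 1 mutant and 1 wild-type sample of dissected adult germ lines from worms kept at 20 degrees, with 4 arrays for each mutant. The mes-2 mutant was strain SS0186 and was set against unc-4(e120), the mes-4 mutant was strain SS0803 and was set against N2, and the mes-2; mes-4 double mutant was strain SS0965 and was again set against unc-4(e120). The labels give no mes-2 or mes-4 allele. The double-mutant germ lines were picked for good proliferation and the presence of oocytes, a selection that the protocol does not state for the other groups. Mutant RNA was in Cy5 on 2 arrays of each group and in Cy3 on the other 2, and replicates were harvested separately. Values are deposited log ratios read as log2 of mutant over wild type, so 1 unit is a doubling and negative numbers mean less RNA in the mutant. The base and the direction are not given in the sources used here, and every fold below rests on base 2.

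The mes-2 probe had a log2 ratio of -2.80 ± 0.683 (SD, n = 4) in mes-2 and -2.49 ± 0.295 (SD, n = 4) in the double mutant, below 0 on all 8 arrays. In mes-4 it had -0.21 ± 0.404 (SD, n = 4). The mes-4 probe had 0.63 ± 0.471 (SD, n = 4) in mes-4 and -0.03 ± 0.686 (SD, n = 4) in the double mutant, with arrays on both sides of 0, so it checks neither the mes-4 label nor the mes-4 side of the double-mutant label. Over 11413 genes with all values, arrays of one group correlated at 0.356 to 0.802 in the same dye orientation and at -0.085 to 0.693 in opposite orientation. Of the variance left by the fit, 47% lay on 1 axis, on which replicates 1 and 4 of the double mutant and replicate 3 of mes-4 lay at the high end and replicates 2 and 3 of the double mutant at the low end. Ratios carry no level of a gene, so germline identity could be read only as a change. Of 9 germline markers 0 passed limma's adjusted test in mes-2, where 5.25% of all genes passed, and 0 had an unadjusted p under 0.05. In mes-4 1 of the 9 fell, gld-1, where 1.39% of all genes fell. In the double mutant 4 of the 9 fell, pgl-1, gld-1, rec-8 and htp-3, where 6.25% of all genes fell. Less RNA per cell and fewer cells of a type cannot be told apart in dissected tissue.

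**Figure D1:**
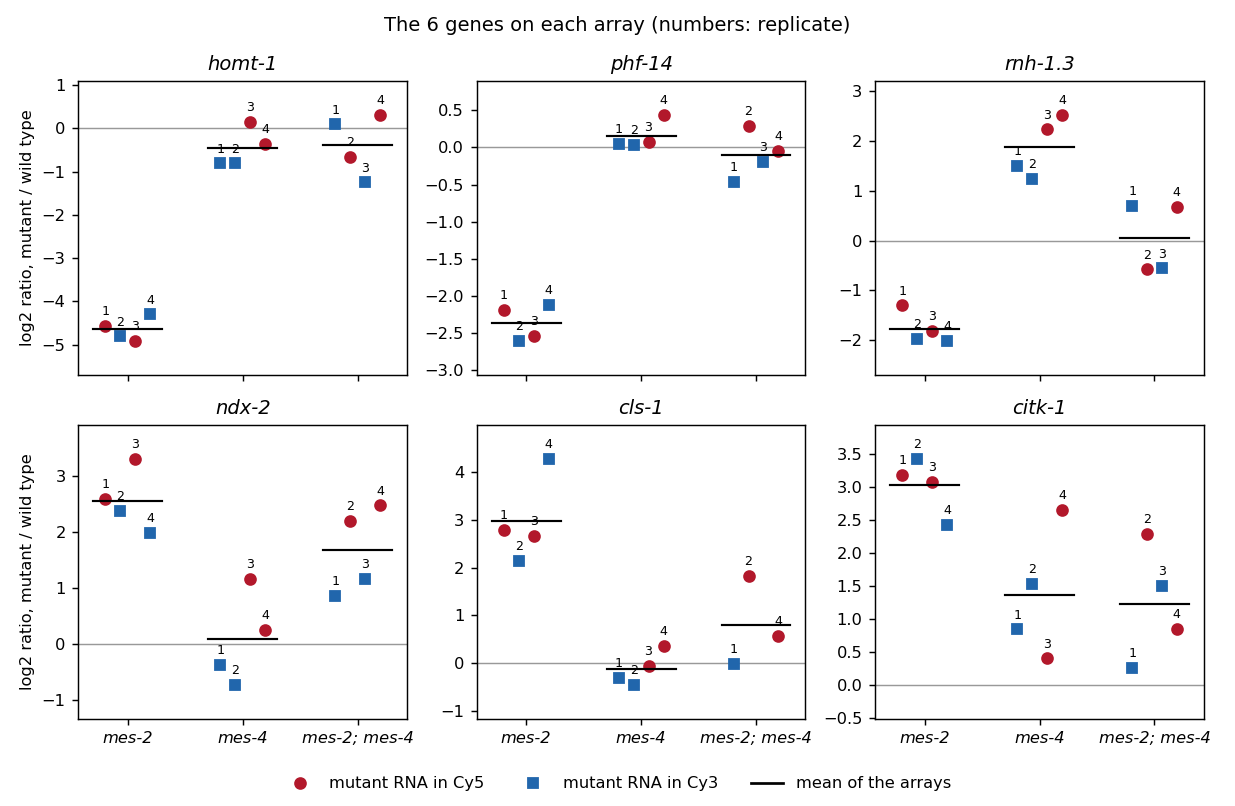
Log2 ratio of mutant over wild type for each of the 6 genes on each array, by mutant, with the replicate number above each point, the dye of the mutant RNA as colour and shape, and the mean of the arrays as a line. The mes-2 values of homt-1, phf-14, rnh-1.3 and cls-1 lie apart from those of the other mutants, while those of ndx-2 and citk-1 overlap with 1 or more of them. The genes were chosen for a gap between mes-2 and the double mutant, and the share of all genes that lie apart so was not counted.

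homt-1 is named after hydroxyindole O-methyltransferase, the enzyme that makes melatonin in mammals. It lies on chromosome I, where it is the first protein-coding gene by start in the gene table. Its log2 ratios on mes-2 replicates 1 to 4 were -4.57, -4.81, -4.91 and -4.30, a mean of -4.65 ± 0.272 (SD, n = 4), or 25.1-fold less RNA. It had the second lowest value of all genes tested in mes-2. Its double-mutant replicates 1 to 4 gave 0.09, -0.67, -1.25 and 0.31, a mean of -0.38 ± 0.716 (SD, n = 4). No double-mutant array came near the mes-2 range, but replicates 2 and 3 were below 0 and replicates 1 and 4 slightly above it.

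phf-14, on chromosome V, encodes a protein with PHD fingers, zinc-binding modules that in many chromatin proteins contact the tail of histone H3. Its mes-2 replicates gave -2.19, -2.61, -2.54 and -2.13, a mean of -2.37 ± 0.242 (SD, n = 4), or 5.16-fold less RNA. The double-mutant mean was -0.11 ± 0.316 (SD, n = 4), with values from -0.47 to 0.29. The groups did not overlap, and the phf-14 double-mutant mean was 4.4% of the mes-2 mean on the log2 scale. Its spread was near the usual, with an SD at percentile 35.5 of all genes in mes-2 and 36.6 in the double mutant. The other chosen genes spread more widely in the double mutant, with SDs at percentiles 86.1 (homt-1) to 94.7 (cls-1). In mes-4 the SDs of rnh-1.3, ndx-2 and citk-1 were at percentiles 90.7, 97.0 and 98.4, and those of homt-1, phf-14 and cls-1 at 76.8, 23.2 and 60.2.

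rnh-1.3, on chromosome I, belongs to the ribonuclease H family, enzymes that cut the RNA strand of RNA:DNA hybrids. Its mes-2 replicates gave -1.3, -1.97, -1.81 and -2.01, a mean of -1.77 ± 0.327 (SD, n = 4). The double mutant replicates gave 0.69, -0.58, -0.56 and 0.68, a mean of 0.06 ± 0.725 (SD, n = 4). These double-mutant values formed 2 pairs on either side of 0, replicates 1 and 4 above and replicates 2 and 3 below, and each pair held 1 array of each dye orientation. The mean near 0 therefore describes none of the 4 arrays.

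ndx-2, on chromosome V, encodes a Nudix hydrolase, a family that cleaves nucleoside diphosphates joined to another group. Its mes-2 replicates gave 2.58, 2.37, 3.30 and 1.98, a mean of 2.56 ± 0.554 (SD, n = 4), or 5.89-fold more RNA. The double mutant gave 0.86, 2.19, 1.16 and 2.47, a mean of 1.67 ± 0.78 (SD, n = 4), so the groups overlapped and 65.3% of the mes-2 value remained on the log2 scale. ndx-2 depended on the dye, with a Cy5 minus Cy3 difference of 1.12 (SE 0.198, limma adjusted p = 0.00263), where 32% of all genes passed. Compared within a dye, its values were 2.94 in mes-2 and 2.33 in the double mutant for Cy5, and 2.18 and 1.01 for Cy3. Of the 6 genes ndx-2 was the only gene whose dye term passed the test.

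cls-1, on chromosome III, is 1 of the CLASP genes of this animal, whose proteins bind microtubules and steady their growing ends. Its mes-2 replicates gave 2.80, 2.14, 2.67 and 4.28, a mean of 2.97 ± 0.917 (SD, n = 4). In the double mutant only 3 arrays had a value, -0.02, 1.83 and 0.58 on replicates 1, 2 and 4, and the fit dropped replicate 3. The fitted double-mutant value was 0.74 (SE 0.402), that is 25% of the mes-2 value. Without the 3 high-scoring arrays of the residual axis it rests on replicate 2 alone and became 1.82, and without the low-scoring ones it rests on replicates 1 and 4 and became 0.28. The cls-1 groups did not overlap, but the highest double-mutant array was only slightly below the lowest mes-2 array.

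citk-1, on chromosome II, is related to citron kinase, which acts at the midbody in the last step of cell division in flies and mammals. Its mes-2 replicates gave 3.18, 3.43, 3.08 and 2.43, a mean of 3.03 ± 0.426 (SD, n = 4), or 8.17-fold more RNA. Its double-mutant arrays gave 0.25, 2.29, 1.5 and 0.85, a mean of 1.22 ± 0.876 (SD, n = 4), or 2.33-fold more RNA. All 4 double-mutant arrays lay above 0 and below all 4 mes-2 arrays, and 40.3% of the mes-2 value remained on the log2 scale.

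The double-mutant arrays did not treat the 6 genes alike. On replicates 2 and 3, the low end of that axis, homt-1, rnh-1.3 and citk-1 lay closer to their mes-2 values than on replicates 1 and 4, and cls-1 did so on replicate 2. phf-14 and ndx-2 did not follow this order. A list of 12 sperm genes moved with it, with array medians of 0.41, -0.84, -1.67 and 0.52 on replicates 1 to 4, while its mes-2 array medians lay between -0.22 and 0.65. In mes-4 they lay between -0.55 and 0.26. Of the 12 sperm genes, 2 passed as higher in mes-2 (spe-15 and fog-3), 1 as lower in mes-4 (spe-15), and 1 as higher and 2 as lower in the double mutant. Over all genes these shares were 3.94%, 1.39%, 9.62% and 6.25% in the same order. The part of sperm RNA in the values of the 6 genes was not tested. Medians of 11 intestinal genes lay between -0.04 and 0.39 in the double mutant, those of 8 gonadal sheath genes between -0.20 and 0.06, and those of 9 early embryonic genes between -0.33 and 0.33. Without the 3 high-scoring arrays, the double-mutant value of homt-1 was -0.96, that of rnh-1.3 -0.57 and that of citk-1 1.90, each from replicates 2 and 3 only. Without both low-scoring arrays, a setting added after seeing the data, these values were 0.20, 0.69 and 0.55, each from replicates 1 and 4 only. Leaving out 1 double-mutant array at a time put homt-1 at -0.614, -0.214, -0.111 and -0.581 without replicates 1 to 4, rnh-1.3 at -0.269, 0.386, 0.2 and -0.087, and cls-1 at 1.19 without replicate 1 and 0.28 without replicate 2.

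The mes-4 arrays ask what the same genes do when the other histone methyltransferase is mutated, and they were not used to choose the genes. rnh-1.3 rose. Its mes-4 replicates gave 1.49, 1.24, 2.23 and 2.52, all above 0, whereas all 4 of its mes-2 arrays were below 0. The fitted rise was 1.87 (SE 0.241, n = 4, limma adjusted p = 0.00153), or 3.65-fold, with a 95% interval of 1.34 to 2.40. It ranked 19th of 12887 genes from the top in mes-4, where 3.91% of all genes passed the test and 2.52% passed as higher. Values by dye were 2.38 with mutant RNA in Cy5 and 1.37 in Cy3. The rise passed the test in all 21 other settings, where it ranged from 1.72 to 2.08.

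The other genes did not pass the test in mes-4. citk-1 had 0.84, 1.53, 0.40 and 2.66 on replicates 1 to 4, again above 0 on every array, with a fitted value of 1.36 (SE 0.356, n = 4, limma adjusted p = 0.0629) and a 95% interval of 0.57 to 2.14. It passed in 4 other settings, and without mes-4 replicate 3 it was 1.79 (adjusted p = 0.0251); over all 21 settings the adjusted p ran from 0.00741 to 0.296. homt-1 had -0.81, -0.81, 0.15 and -0.36, a fitted value of -0.46 (SE 0.231, limma adjusted p = 0.428) with an interval of -0.97 to 0.05. Of the 21 other settings, it passed only without the 3 high-scoring arrays of the residual axis (-0.63, adjusted p = 0.0467; range of adjusted p 0.0467 to 0.878).

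phf-14 had 0.05, 0.03, 0.08 and 0.44 in mes-4, a fitted value of 0.15 (SE 0.12) with an interval of -0.11 to 0.41 (limma adjusted p = 0.722). cls-1 had values from -0.45 to 0.36 and a fitted value of -0.12 (SE 0.343, interval -0.88 to 0.65, limma adjusted p = 0.96). ndx-2 had -0.37, -0.72, 1.17 and 0.26, with 0.72 for Cy5 and -0.55 for Cy3, and a fitted value of 0.09 (SE 0.171, interval -0.29 to 0.46, limma adjusted p = 0.933). The intervals of phf-14, cls-1 and ndx-2 lie far inside the size of their own mes-2 values. Medians of the 11 intestinal genes were -1.45, -1.62, -0.34 and -0.26 on mes-4 replicates 1 to 4, with 0 of the 11 past the adjusted test by limma but 9 of 11 lower at an unadjusted p under 0.05, and replicates 1 and 2 share the Cy3 orientation. All of the 6 genes but citk-1, rnh-1.3 included, were also lower on both of these arrays than on replicates 3 and 4, with rnh-1.3 at 1.49 and 1.24 against 2.23 and 2.52. The part of intestinal RNA in those values was not tested.

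**Figure D2:**
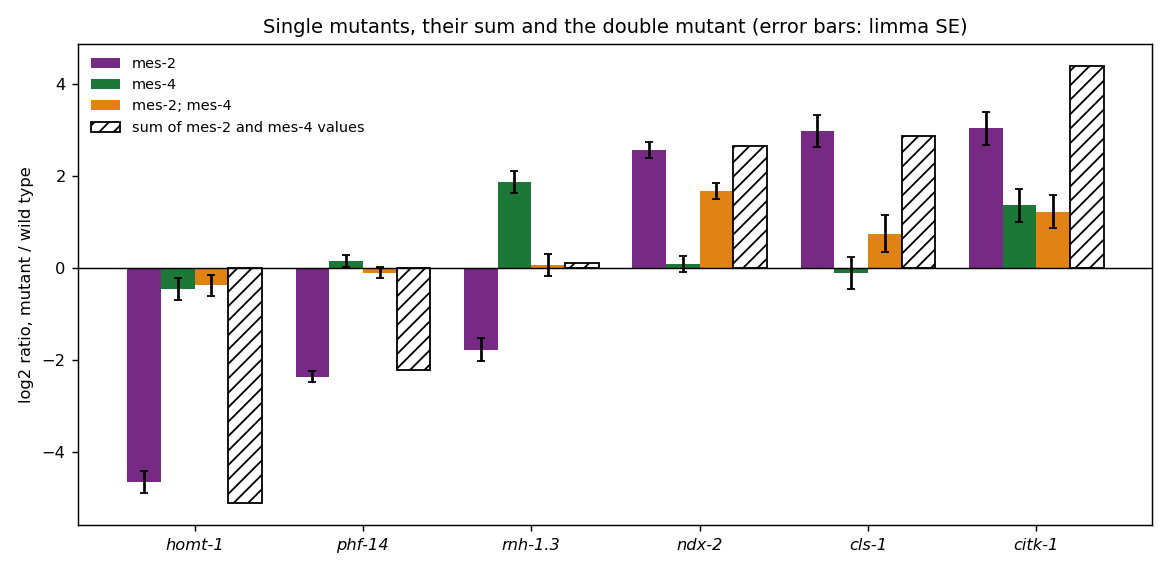
Fitted log2 ratios of the 6 genes in each mutant (bars, with limma standard errors) beside the plain sum of the mes-2 and mes-4 values (hatched). For rnh-1.3 the single values of -1.77 and 1.87 have opposite signs, their sum is 0.10 and the double-mutant value is 0.06. That value averages arrays at 0.69, -0.58, -0.56 and 0.68, so its nearness to the sum holds for no single array. For homt-1 the sum is -5.11 and the double mutant -0.38.

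Set beside the sum of both single mutants, the double-mutant values fell into different arrangements. For rnh-1.3 the sum was 0.10 and the double mutant 0.06, a mean of arrays that ran from -0.58 to 0.69 with none near it. For homt-1 and phf-14 the sums were -5.11 and -2.22, against -0.38 and -0.11 in the double mutant. For ndx-2, cls-1 and citk-1 the sums were 2.64, 2.86 and 4.39, against 1.67, 0.74 and 1.22. citk-1 had a positive value in each single mutant, and its double-mutant value of 1.22 was the lowest of its 3 group values, although it differed from the mes-4 value of 1.36 by less than the spread of either group. These sums set mutants of different wild-type strains beside each other and rest on the values that chose the genes, so no test is given.

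**Figure D3:**
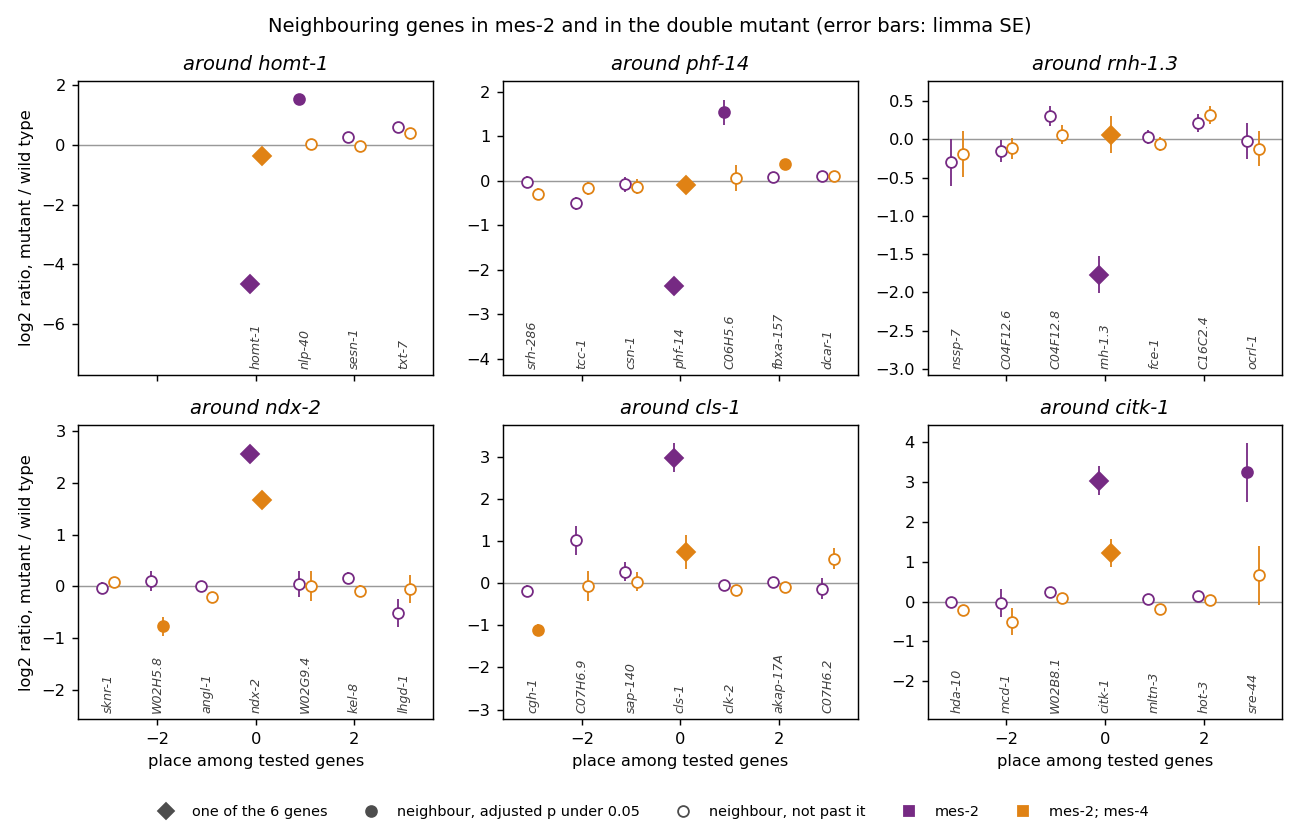
Fitted log2 ratios, with limma standard errors, of the 6 genes (diamonds) and of the nearest tested genes on either side in the gene table (circles, filled where the adjusted p is under 0.05), in mes-2 and in the double mutant. Place 0 is the gene itself, and homt-1 has tested neighbours on 1 side only. Beside homt-1 the neuropeptide gene nlp-40 is at 1.52 in mes-2 and at 0.03 in the double mutant.

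The nearest tested genes on either side, up to 3 a side, were not part of the choice. Of these 33 neighbours 3 rose in mes-2 and 0 fell by limma, with 5.25% of all genes past the test in either direction. At an unadjusted p under 0.05, 8 passed in mes-2, 1 of them lower. In the difference between double mutant and mes-2, 0 were higher and 2 lower by limma, where 6.19% of all genes passed. Unadjusted, 6 passed in that difference, all 6 lower. The share of all genes at an unadjusted p was not counted. The neighbours' mes-2 median was 0.04 against 0.00 for all genes. The first neighbour of homt-1, with no protein-coding gene between them, is nlp-40, which encodes a neuropeptide that the intestine releases to time defecation. nlp-40 moved opposite to homt-1. It had 1.78, 1.39, 1.72 and 1.21 in mes-2 and rose by 1.52 (SE 0.0793, n = 4, limma adjusted p = 3.82e-06). The double-mutant values of nlp-40 ran from -0.23 to 0.25, with a fitted value of 0.03 (SE 0.0793, adjusted p = 0.871). The difference between double mutant and mes-2 was -1.5 (SE 0.112, limma adjusted p = 4.46e-05), where 6.19% of all genes passed. nlp-40 passed both tests in all 21 other settings. Medians of the 11 intestinal genes were 0.45, 0.22, -0.52 and 0.28 on mes-2 replicates 1 to 4. The part of intestinal RNA in the nlp-40 values was not tested.

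The gene C06H5.6 overlaps phf-14 in the gene table and also moved opposite to it. Its mes-2 replicates gave 2.96, 0.35, 1.00 and 1.85, a rise of 1.54 (SE 0.286, n = 4, limma adjusted p = 0.00952), but they spread widely, and without mes-2 replicate 4 the rise of 1.26 did not pass (adjusted p = 0.0582). C06H5.6 had 0.06 in the double mutant (SE 0.286, adjusted p = 0.929), and the difference of -1.48 from mes-2 did not pass (adjusted p = 0.0569). The table gives no strand, so whether the probes of this pair could report each other's RNA was not tested.

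sre-44, a chemoreceptor gene, is the third tested gene after citk-1. It had 1.92, 6.34, 2.54 and 2.14 in mes-2, a rise of 3.23 (SE 0.741, limma adjusted p = 0.0353) that passed in 12 of 20 other settings. Its call was lost without any 1 of the mes-2 arrays (2.05 without replicate 2, 3.50 to 3.74 without the others), mes-4 replicate 1 or 4, or double-mutant replicate 4 (3.23 for each). Near cls-1, cgh-1, which encodes a DEAD-box helicase of germline RNA granules, fell by 1.1 in the double mutant (SE 0.142, n = 4, limma adjusted p = 3.92e-04), and by 0.91 relative to mes-2 (SE 0.202, adjusted p = 0.0245), although the latter passed in only 12 of 21 other settings and was lost without mes-2 replicate 1, 3 or 4 or double-mutant replicate 3 or 4 (-0.92 to -0.82). Near ndx-2, W02H5.8 fell by 0.78 (SE 0.188, adjusted p = 0.0169) and near phf-14, fbxa-157 rose by 0.37 (SE 0.0954, adjusted p = 0.0236) in the double mutant. W02H5.8 was -0.73 without double-mutant replicate 2, no longer past the test, and -0.46 without replicate 3, and fbxa-157 did not pass without replicate 3 (0.34) or 4 (0.31). These were the only neighbours past the test there, 1 higher and 2 lower of 33, with 15.9% of all genes past it. In mes-4, 0 of the 33 neighbours passed by limma, and 5 were lower at an unadjusted p under 0.05. No neighbour of rnh-1.3 passed in any of the 4 comparisons, with values from -0.30 to 0.30 in mes-2. At an unadjusted p under 0.05, 1 of its 6 neighbours passed in each of the 3 mutants and 0 in the difference.

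**Figure D4:**
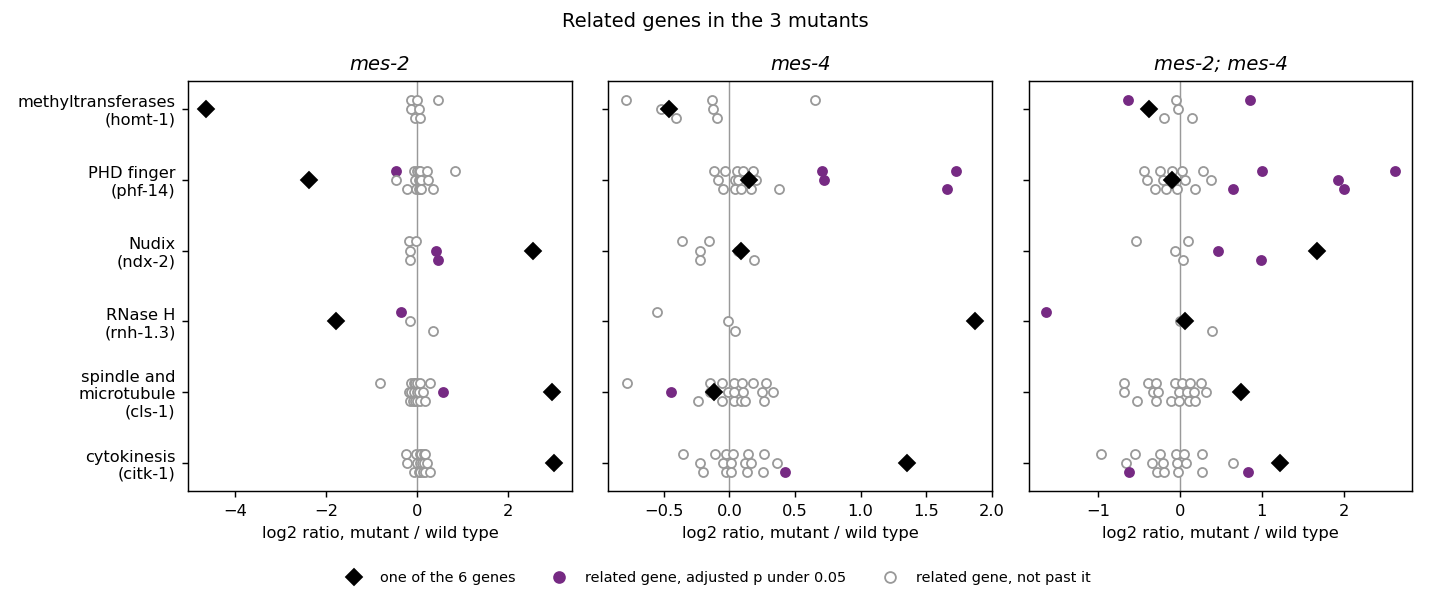
Fitted log2 ratios of related genes in 6 lists (rows), in each mutant (panels, with separate horizontal scales), with genes past an adjusted p of 0.05 filled and the 6 chosen genes as diamonds. In mes-2 all related genes lie closer to 0 than the chosen gene of their row. Each chosen gene was picked for a mes-2 value far from 0, so this order is no result about its relatives.

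Genes related to the 6 by family or function, 99 in all, were read next, and 73 of them could be tested. In mes-2, 3 rose and 2 fell (6.85% in all), against 5.25% of all genes in either direction (3.94% higher, 1.3% lower). In mes-4, 5 rose and 1 fell (8.22% in all), against 3.91% of all genes in either direction (2.52% higher, 1.39% lower). The double mutant had 9 that rose and 3 that fell (16.4% in all). Of all genes, 15.9% passed there in either direction (9.62% higher, 6.25% lower), a share close to that of the related genes. In the double mutant 5 were higher and 2 lower than in mes-2 (9.59% in all). Of all genes, 6.19% passed in either direction (3.57% higher, 2.62% lower). These counts are small and changed with the setting: in the double mutant 20 of the 73 were called without the 3 high-scoring arrays of the residual axis and 34 without the 2 low-scoring ones. With the double mutant fitted alone, on its own spread, 1 of the 73 was called. The double-mutant standard errors and p-values given for single genes rest on a spread shared by all 3 groups.

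Among 20 spindle and microtubule genes beside cls-1, the paralog cls-3 on chromosome III had 0.56, 0.57, 0.73 and 0.46 in mes-2 and -0.38, -0.59, -0.44 and -0.38 in mes-4. It rose by 0.58 in mes-2 (SE 0.0805, limma adjusted p = 0.00185) and fell by 0.45 in mes-4 (SE 0.0805, adjusted p = 0.0104). For the double mutant cls-3 gave 0.10 (SE 0.0805, adjusted p = 0.473) and differed from mes-2 by -0.48 (SE 0.114, adjusted p = 0.0334). The rise of cls-3 passed in all 21 other settings, the fall in 17 and the difference in 7. The fall did not pass without mes-4 replicate 2 (-0.41) or 4 (-0.46), and the difference passed without mes-4 replicate 3 or double-mutant replicate 1 but not without any 1 of the other 10 arrays (-0.52 to -0.43). The other paralog, cls-2, needed for spindles of the early embryo, had -0.16 in mes-2 and -0.29 in the double mutant (adjusted p = 0.786 and 0.381). No other gene of this list passed in any comparison. Its median was -0.02 in mes-2 and -0.04 in the double mutant, against 0.00 and 0.01 for all genes.

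Of 6 Nudix genes besides ndx-2, 2 rose in mes-2, ndx-1 by 0.47 (SE 0.0789, limma adjusted p = 0.00529) and ndx-3 by 0.42 (SE 0.0953, adjusted p = 0.0279). ndx-1 had 0.55, 0.37, 0.65 and 0.32 in mes-2 and -0.06 to 0.23 in the double mutant. It was also the gene whose 12 values followed those of ndx-2 most closely (Pearson r = 0.954 over 12 arrays, not corrected for dye). ndx-3 went the other way between the groups, to 0.99 in the double mutant (SE 0.0953, adjusted p = 5.30e-05), a gain of 0.57 over mes-2 (SE 0.135, adjusted p = 0.0312). ndx-6 rose in the double mutant by 0.46 (SE 0.0755, adjusted p = 0.00185), and its difference from mes-2 was 0.48 (SE 0.107, adjusted p = 0.0249). The mes-2 call of ndx-3 was lost without any 1 mes-2 array or mes-4 replicate 1 (0.37 to 0.46), and its difference without mes-2 replicate 2, 3 or 4, mes-4 replicate 1 or 2, or double-mutant replicate 1 or 4 (0.48 to 0.58). The difference of ndx-6 was lost without any 1 mes-2 array or double-mutant replicate 1 or 4 (0.42 to 0.49). The Nudix median was -0.08 in mes-2 and 0.06 in the double mutant.

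Of 3 ribonuclease H genes besides rnh-1.3, rnh-2, the catalytic subunit of the second type of this enzyme, fell in mes-2 by 0.36 (SE 0.0893, limma adjusted p = 0.0449), a call that held in only 7 of 21 other settings and was lost without any 1 mes-2 or mes-4 array or double-mutant replicate 2 or 4 (-0.41 to -0.30). rnh-1.1 fell in the double mutant by 1.64 (SE 0.428, adjusted p = 0.0243), with -1.06, -4.02, -0.84 and -0.64 on its arrays. Without replicate 2 of the double mutant it was -0.81 and still passed (limma adjusted p = 0.0034), and it passed in 20 of 21 other settings. rnh-1.0 had values of -0.15, 0.05 and 0.39 in mes-2, mes-4 and the double mutant and did not pass. No relative of rnh-1.3 passed in mes-4 by limma, also at an unadjusted p under 0.05, where their values ran from -0.56 to 0.05.

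Of 19 PHD finger genes besides phf-14, 1 fell in mes-2, phf-10 by 0.45 (SE 0.0782, limma adjusted p = 0.00657), and its means were -0.09 for Cy5 and -0.81 for Cy3. Without mes-2 replicate 2 it was -0.40 (adjusted p = 0.0532). Rises in mes-4 numbered 4, phf-31, phf-33, phf-34 and chd-3, by 0.71, 1.66, 0.72 and 1.73 (SE 0.153, 0.315, 0.167 and 0.353). chd-3 encodes a Mi-2 type chromatin remodeller. These 4 are X-linked, 4 of the 5 X-linked genes of the list, while 0 of 14 autosomal ones passed in mes-4 by limma, also at an unadjusted p under 0.05. In mes-4 the call of phf-31 was lost without any 1 mes-4 array (0.64 to 0.80), that of phf-33 without replicate 2, 3 or 4 (1.28 to 1.75), that of chd-3 without replicate 1, 2 or 4 (1.55 to 1.80), and that of phf-34 without any 1 mes-2 or mes-4 array (0.56 to 0.80). Of all X-linked genes tested, 193 of 1710 (11.3%) passed as higher in mes-4. The same 4 genes rose in the double mutant, by 1.94, 2.01, 1.01 and 2.63 (SE 0.153, 0.37, 0.167 and 0.353), together with phf-30 by 0.64 (SE 0.15). There phf-30 did not pass without double-mutant replicate 1 (0.45) or 4 (0.54), nor phf-33 without replicate 1 (1.55). phf-31 was higher there than in mes-2 by 2.39 (SE 0.216, adjusted p = 1.51e-04) in all 21 other settings too. phf-33 and phf-34 were higher by 2.21 and 0.95 (SE 0.515 and 0.236, adjusted p = 0.0401 and 0.0391), in 6 of 20 and 7 of 21 settings. Both differences were lost without any 1 mes-2 array and without double-mutant replicate 1 or 2, that of phf-33 also without mes-4 replicate 3 or 4 or double-mutant replicate 4 (1.63 to 2.54 in all), and that of phf-34 also without mes-4 replicate 1 or 2 or double-mutant replicate 3 (0.80 to 1.03 in all).

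Of 7 methyltransferase genes besides homt-1, 0 passed in mes-2, mes-4 or the difference by limma, with 1, 3 and 0 at an unadjusted p under 0.05. In the double mutant pcm-1 rose by 0.86 (SE 0.171, limma adjusted p = 0.00564) and coq-3 fell by 0.64 (SE 0.186, adjusted p = 0.0387). pcm-1 acts on damaged proteins rather than on small molecules, and coq-3 acts in ubiquinone synthesis. The coq-3 call was lost without mes-2 replicate 2 or 4, mes-4 replicate 1 or 2, or double-mutant replicate 2 or 3 (-0.64 to -0.43). Of 18 cytokinesis genes besides citk-1, 0 passed in mes-2 by limma, also at an unadjusted p under 0.05. The X-linked nmy-1, which encodes a non-muscle myosin heavy chain, rose by 0.42 in mes-4 (SE 0.08, adjusted p = 0.014), but not without replicate 1, 2 or 4 (0.38 to 0.45). It is also 1 of the 8 gonadal sheath genes, and the only one called in mes-4, where 2.52% of all genes rose. The sheath medians there lay between -0.055 and 0.21, and the part of sheath RNA in the nmy-1 value was not tested. In the double mutant the septin gene unc-59 fell by 0.62 (SE 0.0958, adjusted p = 0.00125) and bir-1, the survivin relative, rose by 0.83 (SE 0.206, adjusted p = 0.0192). bir-1 did not pass without double-mutant replicate 1 (0.56) or 4 (0.73). unc-59 also differed from mes-2 by -0.61 (SE 0.136, adjusted p = 0.0237), but not without mes-2 replicate 1, 3 or 4 or double-mutant replicate 3 or 4 (-0.62 to -0.56).

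Genes whose values followed each of the 6 most closely over the arrays were picked by Pearson correlation, as a description, since arrays of a group share their mutant and the values chose the genes. The ratios were not corrected for dye here, and ndx-2 and ndx-1 both averaged higher with Cy5 in every mutant. The part of dye in these correlations was not tested. homt-1 was followed by the F-box gene fbxa-108 (r = 0.976), phf-14 (r = 0.955) and T04G9.4 (r = 0.955), and phf-14 by ech-4 (r = 0.961), homt-1 and C07D10.5 (r = 0.953). rnh-1.3 was followed less closely, by bath-24 (r = 0.922), fbxa-193 (r = 0.907) and T04G9.4 (r = 0.895). For ndx-2 the genes after ndx-1 were ric-19, a gene of dense-core vesicles (r = 0.93), and pcyt-2.1, a gene of phospholipid synthesis (r = 0.928). For cls-1, over 11 arrays, they were spe-58 (r = 0.95), C05D2.8 (r = 0.93) and W09C3.1 (r = 0.926). For citk-1 they were tra-3, a calpain protease gene of sex determination (r = 0.961), supr-1 (r = 0.949) and nep-1, a neprilysin gene (r = 0.945). A high correlation did not mean similar sizes: T04G9.4 averaged -0.32, 0.58 and 0.48 in mes-2, mes-4 and the double mutant, and supr-1 -0.19, -1.03 and -1.04.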

How the data were processed

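The deposited values are 1 log ratio for each of 22490 probes on 12 two-colour arrays, read here as log2. Per the labels' protocols, poly-A RNA was amplified and labelled with Cy3 or Cy5; the normalization, spot filter, log base and ratio direction are not given in the sources used here. Channel 1 was the mutant on every array, so positive was taken as higher in the mutant. Array medians ran from -0.01 to 0.02. There is no read depth for arrays, and the number of arrays sets the precision.

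Probes were named through GEO's platform annotation (17461 named 1 gene, 0 several, 5029 none), updated through the gene IDs of a table of assembly WBcel235, which matched 16310 IDs and left 88; its coordinates are not printed. Probes of a gene were averaged per array. Genes were kept when each group had 3 or more of its 4 values, and these 12887 genes entered 1 limma 3.58.1 fit (R 4.3.3) with a coefficient per mutant and a dye term. Tests were two-sided with Benjamini-Hochberg adjustment over all genes, called at an adjusted p under 0.05. The procedure was tested on simulated data. Errors are limma SE unless an SD is named.

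The 6 genes, the lists of related genes and the settings were chosen with earlier results of these data known. Named genes were the 6, mes-2 and mes-4, called related genes, the 3 nearest tested genes on either side, and the 3 most correlated genes. T04G9.4 and supr-1 were singled out after their values were seen. The alternatives varied the dye term, scaling, missing-value filter, replicate block, arrays fitted and probe summary.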

Additional observations from a re-analysis of the deposited data

Results flagged for a closer look

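In 8 of 165 sets of 4 arrays, 1 array lay far from the other 3, about the 1 in 20 that chance gives. phf-14 in mes-4 had 0.44 on replicate 4 against 0.03 to 0.08 on the others. Among related genes, pcm-1 in mes-2 had 0.94 on replicate 3 against 0.28 to 0.33, ndx-1 in mes-4 had 0.07 on replicate 3 against -0.33 to -0.30, rnh-1.1 in the double mutant had -4.02 on replicate 2 against -1.06 to -0.64, and rnh-2 in mes-2 had -0.40 on replicate 3 against -0.35 to -0.34. Among neighbours, C07H6.9 near cls-1 had 2.92 in mes-2 on replicate 4, the array on which cls-1 itself was highest, against 0.33 to 0.48. mltn-3 in mes-4 had -0.42 on replicate 4 against -0.08 to -0.04, and sre-44 in mes-2 had 6.34 on replicate 2 against 1.92 to 2.54.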

How the results depend on the processing

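The mes-4 rise of rnh-1.3 kept its direction and call in all 21 settings, and the mes-2 values of the 6 genes kept their sign. In mes-4, citk-1 passed with scaled arrays (1.52), without the 3 high-scoring arrays of the residual axis (1.80) and without the 2 low-scoring ones (1.36), and lay between 0.95 and 1.79 with single arrays left out; homt-1 passed without the 3 high-scoring arrays (-0.63; -0.63 to -0.38 with single arrays left out), and ndx-2 turned to -0.14 there and to -0.11 without mes-4 replicate 3 (up to 0.23 with others left out), never past the test. The genes called in mes-2, mes-4, the double mutant and the difference were 676, 504, 2046 and 798. Without the dye term they were 402, 283, 1301 and 367, without the high-scoring arrays 1185, 1409 and 1355 for mes-2, mes-4 and the difference, and without the low-scoring arrays 885 in mes-4 and 1861 for the difference. Fitted alone, the double mutant had 173 and the difference 330; scaled arrays gave 876 in mes-4. Leaving out single arrays gave 357 to 795 in mes-2, 210 to 681 in mes-4, 1289 to 2152 in the double mutant and 474 to 833 for the difference. Of 73 related genes, 5, 6, 12 and 7 were called in these comparisons. Without the dye term it was 2 in mes-2, 3 in mes-4 and 1 in the difference; fitted alone 3 in mes-2, 1 in the double mutant and 1 in the difference; without the high-scoring arrays 18 in mes-4, 20 in the double mutant and 12 in the difference; without the low-scoring arrays 10, 34 and 17; with scaled arrays 3 in the difference. Single arrays left out gave 2 to 5, 0 to 8, 10 to 15 and 1 to 6. With a replicate block, the genes called were 323 in mes-4 and 453 for the difference, and the related genes 3 in mes-2, 0 in mes-4 and 1 in the difference. Equal numbers did not mark shared material: residual correlations of equally numbered arrays ran from -0.473 to 0.54, and 2 of 12 arrays correlated best with their own number. In the double mutant, coq-3 and W02H5.8 lost their calls without the low-scoring arrays (-0.17 and -0.30), pcm-1, phf-30, phf-33 and bir-1 without the high-scoring arrays (0.48, 0.25, 1.82 and 0.34), and fbxa-157 in both of these settings. Removal of the low-scoring arrays was added after seeing the data. The cause of these shifts was not tested.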
